A study of Rattus norvegicus with 44 samples.

Results

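Mast cell granule proteases were followed in whole kidney RNA of obese ZSF1 rats through 5 genes, Mcpt2, Cma1, Cpa3, Mcpt8l2 and Mcpt8l3, taken by gene symbol from the 32883 entries of the expression table. All 5 symbols were found, and all 5 passed the filter that left 13482 entries for testing. The members were selected on their FPKM changes against Vehicle in these same animals, so values against Vehicle are given as a description without a test. The 44 rats were ZSF-1OB animals, an obese, diabetic and hypertensive strain with kidney disease. All carried a telemetry device, started treatment at 22 weeks of age and were treated for 6 months through the feed. Vehicle (n = 11) received no drug, Enalapril (n = 9), an angiotensin converting enzyme inhibitor, was given at 3 mg/kg/day, and Compound 1 (n = 12), a stimulator of soluble guanylate cyclase, was raised from 1 to 3 mg/kg/day. The Combination group (n = 12) took the same Enalapril dose together with Compound 1 held at 1 mg/kg/day, so the final Compound 1 dose differed between the arms.

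Mast cells are tissue resident immune cells that store proteases in granules together with histamine and serglycin proteoglycan, and release them when the IgE receptor or other receptors are engaged. Mcpt2 encodes rat mast cell protease 2, a chymase-like serine protease known from mucosal mast cells. Cma1 encodes the alpha chymase of connective tissue mast cells, and Cpa3 the mast cell carboxypeptidase A, a zinc exopeptidase. Mcpt8l2 and Mcpt8l3 encode serine proteases of the Mcpt8 family, whose members are known from mast cells and basophils. In whole tissue, fewer mast cells and less protease RNA in each mast cell cannot be told apart.

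The sequences before the start sites show which of these genes share letters and which do not. RefSeq promoter entries of the GRCr8 assembly were matched by symbol for 4 of the 5 genes. The 250 bases upstream of each start site are written 5′ to 3′ on the strand of the gene, with GATA words (AGATAA and its variants TGATAA and AGATAG and also TGATAG, searched on both strands) in capitals. Cma1 lies at chr15:33390134-33390383 on the minus strand, Cpa3 at chr2:104673238-104673487 on the minus strand, Mcpt8l2 at chr15:33718231-33718480 on the plus strand and Mcpt8l3 at chr15:33673014-33673263 on the plus strand.
Cma1: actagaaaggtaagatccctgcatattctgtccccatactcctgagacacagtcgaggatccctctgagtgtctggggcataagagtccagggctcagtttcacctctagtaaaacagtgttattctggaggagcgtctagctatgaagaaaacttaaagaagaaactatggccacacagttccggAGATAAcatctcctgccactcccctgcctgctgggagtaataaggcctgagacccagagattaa
Cpa3: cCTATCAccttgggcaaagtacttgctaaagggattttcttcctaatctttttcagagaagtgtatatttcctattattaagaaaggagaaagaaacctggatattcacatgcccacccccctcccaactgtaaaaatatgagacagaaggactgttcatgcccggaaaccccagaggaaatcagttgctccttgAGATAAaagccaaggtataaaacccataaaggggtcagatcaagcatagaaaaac
Mcpt8l2: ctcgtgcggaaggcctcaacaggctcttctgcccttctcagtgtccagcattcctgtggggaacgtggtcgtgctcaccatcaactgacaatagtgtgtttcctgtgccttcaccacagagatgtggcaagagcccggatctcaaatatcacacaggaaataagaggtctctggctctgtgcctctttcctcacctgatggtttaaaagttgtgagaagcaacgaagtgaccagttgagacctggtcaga
Mcpt8l3: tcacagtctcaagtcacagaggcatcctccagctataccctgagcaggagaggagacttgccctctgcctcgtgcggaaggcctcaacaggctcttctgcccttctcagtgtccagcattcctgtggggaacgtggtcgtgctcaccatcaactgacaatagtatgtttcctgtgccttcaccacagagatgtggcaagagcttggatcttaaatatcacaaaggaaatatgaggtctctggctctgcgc
Cma1 held 1 GATA word, which begins at position -64 counted from the start site, and Cpa3 held 2, at -249 and -55. No such word was found in the windows of Mcpt8l2 and Mcpt8l3. GATA words were present in 27.0% of all 33469 promoters of the same length, so a match is a description of the letters only. Mcpt8l2 and Mcpt8l3 matched at 175 of 182 aligned bases (96.2%) and lie close to each other on chromosome 15. The aligned stretch begins the Mcpt8l2 window and ends the Mcpt8l3 window, so it lies at different distances from their start sites.

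How firmly each level is known depends on the fragments behind it. Cpa3 and Cma1 values were whole multiples of a fixed step in 44 of 44 animals each, with a tolerance of 0.1 step, after scaling by relative depth. The step was 0.0188 FPKM for Cpa3 and 0.0306 FPKM for Cma1 at median depth, which gives median fragment numbers for Cpa3 of 123 in Vehicle, 56 in Enalapril, 53.5 in Compound 1 and 32.5 in Combination. For Cma1 the medians were 75, 32, 40 and 30 fragments in the same order, and the lowest animal, Combination animal 4010, had 3. Mcpt2, Mcpt8l2 and Mcpt8l3 reached whole steps in 43.2%, 57.1% and 29.5% of their values above 0, so no fragment number is given for them. How reads that match several like genes were assigned is not stated, so the levels of these 3 genes and the correlations between them are uncertain. Relative depth ranged from 0.622 to 1.44 times the typical library.

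Mcpt2 was the most abundant of the 5 in FPKM, a unit that is already per transcript length. Its level was lowest 9.26, median 15.6 and highest 21.1 FPKM in Vehicle, 3.82, 5.57 and 15.4 in Enalapril, 2.95, 4.91 and 9.94 in Compound 1, and 1.18, 3.03 and 4.54 in Combination. All 12 Combination animals lay below the lowest Vehicle animal, as did 7 of 9 Enalapril and 11 of 12 Compound 1 animals. Of all 13482 tested genes, 0.66% had every Combination animal below Vehicle, 0.86% every Enalapril animal and 0.0297% every Compound 1 animal, and since the members were selected on these contrasts nothing is read from their own overlap. The mean fell from 15.6 ± 3.88 (SD, n = 11) in Vehicle to 6.77 ± 3.72 (n = 9), 5.45 ± 2.23 (n = 12) and 3.06 ± 0.993 (n = 12) in Enalapril, Compound 1 and Combination.

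Cma1, the chymase, followed the same order of group means at a lower level. Its lowest, median and highest values were 1.77, 2.57 and 4.00 FPKM in Vehicle, 0.651, 1.13 and 1.91 in Enalapril, 0.571, 1.18 and 1.92 in Compound 1, and 0.0766, 0.920 and 1.40 in Combination. No Combination animal reached the Vehicle range, and 1 Enalapril and 1 Compound 1 animal did. Among the treated groups the Cma1 ranges overlapped widely.

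Cpa3, the carboxypeptidase, had 0.958, 2.47 and 3.71 FPKM as lowest, median and highest value in Vehicle, 0.162, 0.886 and 1.85 in Enalapril, and 0.309, 1.03 and 1.74 in Compound 1. In Combination the 12 values lay between 0.422 and 0.811 with a median of 0.588 FPKM, all below the Vehicle range. The spread between Combination animals was also small, with an SD of 0.21 on the log2 scale against 0.50 in Vehicle, 0.84 in Enalapril and 0.58 in Compound 1.

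Mcpt8l2 had 2.01, 3.04 and 4.49 FPKM as lowest, median and highest value in Vehicle, and 0.617, 1.24 and 2.70 in Enalapril. In Compound 1 its values were 0.707, 0.821, 0.979, 0.994, 1.17, 1.30, 1.31, 1.32, 1.43, 1.57 and 1.63 FPKM, with animal 3105 listed at 0. In Combination they were 0.138, 0.147, 0.239, 0.241, 0.304, 0.465, 0.561, 0.610, 0.630, 0.740 and 0.767 FPKM, with animal 4012 listed at 0. Neither Compound 1 nor Combination overlapped Vehicle, and 9 of 12 Combination animals lay below every Enalapril animal. For the latter count the share over all genes was not computed, so nothing is read from it.

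Mcpt8l3, the neighbouring copy, was the most variable in Vehicle on the log2 scale (SD 0.71), where its lowest, median and highest values were 1.12, 3.72 and 6.48 FPKM. The values were 0.163, 0.902 and 3.48 in Enalapril, 0.390, 1.02 and 1.48 in Compound 1, and 0.210, 0.789 and 1.80 in Combination. In Combination 11 of 12 animals lay below the lowest Vehicle value of Mcpt8l3, and animal 4005 lay above it at 1.80 FPKM.

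**Figure D1:**
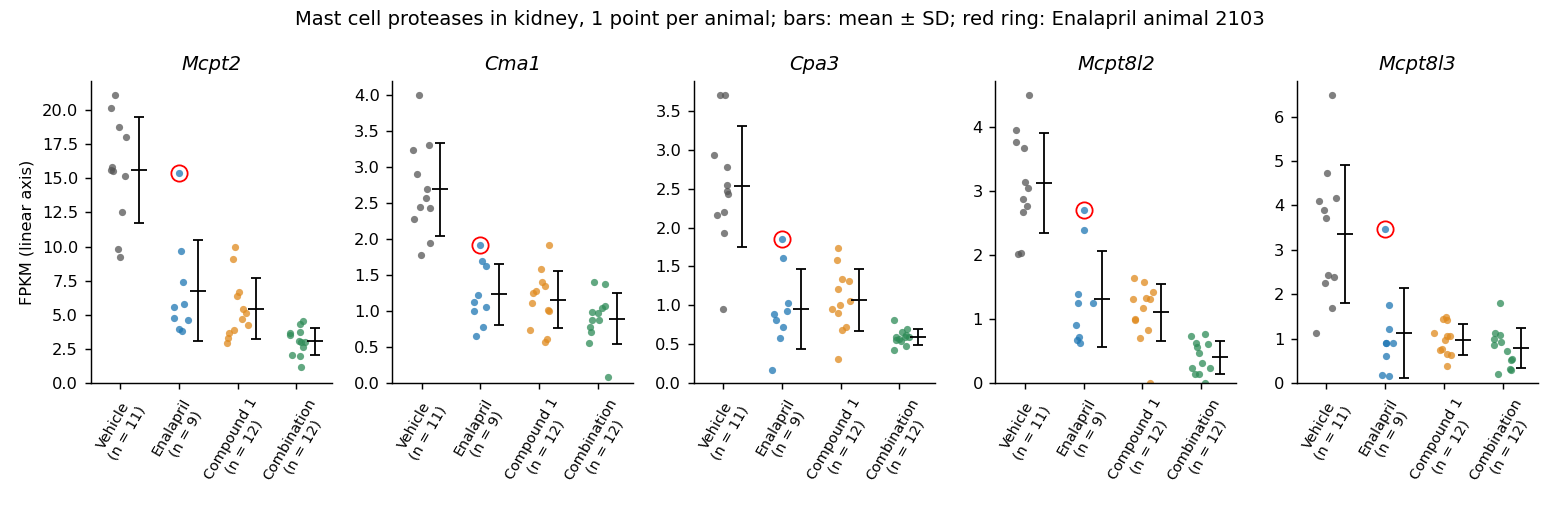
FPKM of each protease (linear y axis, its own scale in each panel) in the 44 animals by treatment group, 1 point per animal, with the group mean ± SD as black bars. Vehicle animals sit highest in each panel, Combination animals lie below every Vehicle animal for Mcpt2, Cma1, Cpa3 and Mcpt8l2, and the ringed Enalapril animal 2103 lies within the Vehicle range in each panel. Of all tested genes 0.66% had every Combination animal below Vehicle, and the members were chosen on these contrasts.

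Enalapril animal 2103 stood apart from its group. It had the highest value of the 9 Enalapril animals for each of the 5 proteases, with 15.4 FPKM of Mcpt2 and a summed protease level of 25.3 FPKM. The other 8 Enalapril animals had a summed level between 6.37 and 15.5 FPKM. Without it the Enalapril mean of Mcpt2 was 5.69 ± 1.97 FPKM (SD, n = 8) and that of Mcpt8l3 was 0.828 ± 0.524 (n = 8). This animal also had the highest sum of 5 other mast cell markers in its group, 1.75 FPKM.

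The summed level of the 5 proteases was 27.3 ± 6.52 FPKM (SD, n = 11) in Vehicle, 11.4 ± 5.93 (n = 9) in Enalapril, 9.75 ± 2.65 (n = 12) in Compound 1 and 5.73 ± 1.61 (n = 12) in Combination. Mcpt2 made up 57.2%, 58.9%, 54.4% and 53.1% of the sum in these groups. The share of Mcpt8l2 was 11.5 ± 1.40% in Vehicle and 6.57 ± 3.58% in Combination, whereas that of Cma1 was 10.1% and 16.1 ± 6.82%.

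Against Vehicle, the contrasts that chose the members, all 5 were by that choice past the threshold for a lower level (adjusted p under 0.05 and fold under 0.66, limma on log2(FPKM + 0.1)) in each of the 3 treated groups, which is no test of them. Of all 13482 genes, 4.04% were lower in Enalapril, 0.156% in Compound 1 and 6.39% in Combination (0.49%, 0.0445% and 0.994% were higher), and nothing is read from the members' count. The log2 fold changes (with SE) under Enalapril were -1.29 (0.21) for Mcpt2, -1.10 (0.18) for Cma1, -1.44 (0.28) for Cpa3, -1.31 (0.23) for Mcpt8l2 and -1.77 (0.39) for Mcpt8l3. Under Compound 1 they were -1.55 (0.18), -1.19 (0.17), -1.20 (0.22), -1.61 (0.33) and -1.61 (0.24) in the same order of genes. All lay between -1.10 and -1.77, while the median gene changed by -0.15 under Enalapril and -0.07 under Compound 1.

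Under Combination the log2 fold changes against Vehicle (with SE) were -2.35 (0.18) for Mcpt2, -1.60 (0.25) for Cma1, -1.87 (0.17) for Cpa3, -2.87 (0.29) for Mcpt8l2 and -2.01 (0.29) for Mcpt8l3, against a median of -0.18 for all genes. The size for Mcpt8l2 depends on the pseudocount, since 1 Combination animal was listed at 0. The same holds for Mcpt8l2 under Compound 1, where animal 3105 was listed at 0. There its change was -0.99 to -1.94 over the alternatives and -1.31 to -1.68 without 1 animal. Scaling each library by the median of ratios moved the median of all genes to between -0.0035 and 0.0065 in the 3 comparisons. The calls over all genes then became 159 lower and 209 higher under Enalapril (from 545 and 66), 16 and 10 under Compound 1 (from 21 and 6) and 295 and 350 under Combination (from 861 and 134). The 5 proteases kept their direction on that scale, with changes of -0.95 to -1.63 under Enalapril, -1.12 to -1.54 under Compound 1 and -1.44 to -2.72 under Combination. Without animal 2103 the Enalapril changes were -1.46 for Mcpt2, -1.19 for Cma1, -1.57 for Cpa3, -1.45 for Mcpt8l2 and -2.01 for Mcpt8l3.

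The comparison of Combination with Enalapril alone asks whether adding Compound 1 moved the proteases further. It is a difference between contrasts against Vehicle that chose the members, so its p-values are not independent of that choice. Mcpt2 was lower in Combination, its log2 change being -1.06 (SE 0.22, adjusted p = 0.046, limma). Of 12 Combination animals, 10 lay below the lowest Enalapril animal. The share of all genes with such a count was not computed, so nothing is read from it. Mcpt2 was the 1 gene called lower among all tested (0.00742%), and nothing is read from that count. The call did not hold when single animals were left out: it was lost in 31 of 44 such fits, with adjusted p between 0.033 and 0.22, and without animal 2103 the log2 fold change was -0.89 (adjusted p = 0.22, limma). It was also lost without the filter on low values (adjusted p = 0.096) and with these 2 groups alone in the fit (adjusted p = 0.11). Mcpt8l2 differed by -1.56 on this scale (SE 0.36, adjusted p = 0.091, limma) and did not pass, but it passed when Compound 1 animal 3105 (adjusted p = 0.0074) or Combination animal 4002 (adjusted p = 0.046) was left out. Cma1 (-0.50, SE 0.24, adjusted p = 0.47), Cpa3 (-0.43, SE 0.24, adjusted p = 0.54) and Mcpt8l3 (-0.25, SE 0.34, adjusted p = 0.84) did not pass either in limma. Cpa3 and Mcpt8l2 were above 1 FPKM in 0 Combination animals, and in 3 and 5 Enalapril animals. Mcpt8l3 was above 1 FPKM in 3 animals of each group. Cpa3, Mcpt8l2 and Mcpt8l3 passed the filter only with the other groups, mainly Vehicle, where they were high.

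Against Compound 1 alone, 3 of the 5 proteases were called lower in Combination, where 2.05% of all genes were called lower and 0.274% higher. This comparison is also a difference between contrasts against Vehicle that chose the members. Its p-values are not independent of that choice, and nothing is read from the members' count. The log2 fold changes were -0.80 for Mcpt2 (SE 0.21, adjusted p = 0.0056, limma), -1.26 for Mcpt8l2 (SE 0.33, adjusted p = 0.0064) and -0.67 for Cpa3 (SE 0.22, adjusted p = 0.027). The median gene changed by -0.10 in this comparison. Cpa3 and Mcpt8l2 were above 1 FPKM in 0 of 12 Combination and 7 of 12 Compound 1 animals each, and passed the filter only with the other groups, mainly Vehicle, where they were high. Cpa3 lost its call without Compound 1 animal 3105 (log2 fold change -0.61, adjusted p = 0.051, limma) and without animal 3007 (-0.62, adjusted p = 0.054), whereas Mcpt2 and Mcpt8l2 kept theirs in each of the 44 fits without 1 animal. With a pseudocount of 1, Cpa3 (-0.35) and Mcpt8l2 (-0.57) no longer reached the fold threshold, and Mcpt8l2 also lost its call with a pseudocount of 0.01 (adjusted p = 0.053, limma). With median-of-ratios scaling Cpa3 lost its call (-0.58, adjusted p = 0.054, limma), and the calls over all genes went from 277 lower and 37 higher to 141 and 96. Cma1 (-0.41, SE 0.23, adjusted p = 0.18) and Mcpt8l3 (-0.40, SE 0.32, adjusted p = 0.36) did not pass in limma.

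Enalapril and Compound 1 alone were not told apart by any of the proteases, although 1.89% of all genes were called lower and 0.326% higher in Enalapril than in Compound 1 (255 and 44 genes, or 151 and 79 with median-of-ratios scaling). The log2 differences, Enalapril minus Compound 1, were 0.26 (95% interval -0.19 to 0.71) for Mcpt2, 0.09 (-0.40 to 0.58) for Cma1, -0.24 (-0.73 to 0.25) for Cpa3, 0.30 (-0.42 to 1.02) for Mcpt8l2 and -0.15 (-0.84 to 0.54) for Mcpt8l3. Adjusted p lay between 0.49 and 0.86 (limma), and the intervals hold differences of up to 1.02 in size. Both groups entered the contrasts against Vehicle that chose the members, so these p-values are not independent of that choice.

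Additivity was examined by setting the Combination level beside the product of the levels left by each drug. In percent of the Vehicle mean, Mcpt2 stood at 43.4 under Enalapril and 34.9 under Compound 1, so the product was 15.1 and the observed Combination level 19.6. The observed level was 1.29 times the product for Mcpt2, 1.69 times for Cma1, 1.47 times for Cpa3, 0.868 times for Mcpt8l2 and 2.38 times for Mcpt8l3. All 12 Combination animals were above the product for Cpa3, 11 for Cma1, 9 each for Mcpt2 and Mcpt8l3, and 5 for Mcpt8l2. Subtracting both single-drug decreases from Vehicle gave an expected level below 0 for each protease, which cannot occur, so the sum of decreases on the FPKM scale is not a usable expectation.

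The observed Combination level in percent of Vehicle was 33.2 for Cma1, 23.4 for Cpa3, 12.9 for Mcpt8l2 and 23.2 for Mcpt8l3. With animal 2103 left out, an alternative chosen after seeing the data, the ratio of observed level to product was 1.54 for Mcpt2, 1.82 for Cma1, 1.67 for Cpa3, 0.998 for Mcpt8l2 and 3.23 for Mcpt8l3. The Compound 1 arm ended at 3 mg/kg/day and the Combination arm at 1 mg/kg/day, so the drug combination and the lower dose cannot be told apart in these ratios.

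**Figure D2:**
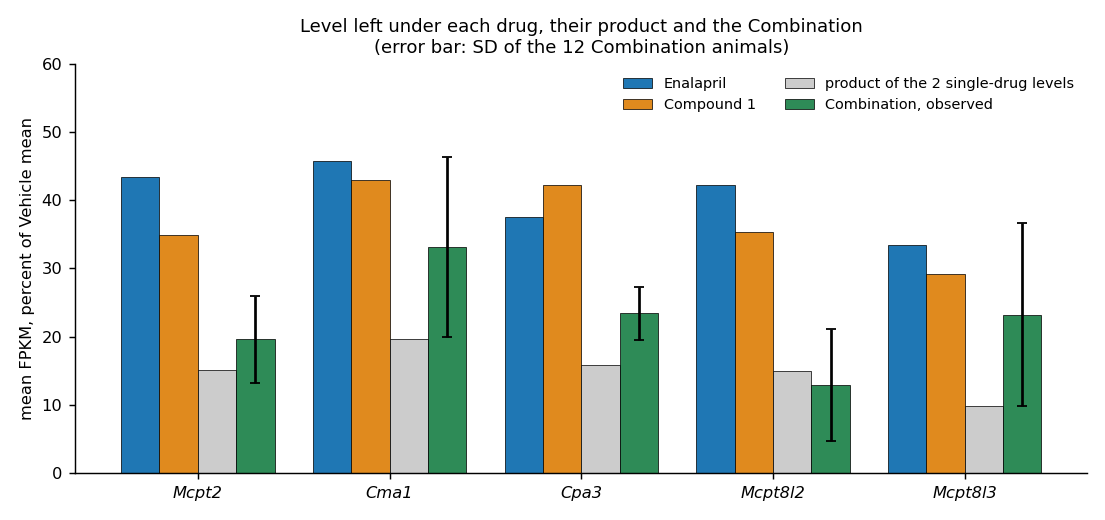
Mean FPKM in percent of the Vehicle mean (y axis, from 0) for each protease under Enalapril, under Compound 1, as the product of both single-drug levels, and as observed in Combination with the SD of 12 animals. The observed level exceeds the product for Mcpt2 (19.6 against 15.1), Cma1, Cpa3 and Mcpt8l3, and lies under it for Mcpt8l2 (12.9 against 14.9).

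The interaction term of the 4-group fit gives a departure on the log2 scale, from means of log2(FPKM + 0.1) and not of FPKM. It is built from the contrasts against Vehicle that chose the members, so it is a description without a test. In it a positive value means a smaller decrease in Combination than the sum of both single-drug log2 changes. The term was 0.50 for Mcpt2 (SE 0.31), 0.69 for Cma1 (SE 0.33), 0.76 for Cpa3 (SE 0.33), 0.05 for Mcpt8l2 (SE 0.49) and 1.37 for Mcpt8l3 (SE 0.47), against a median of 0.05 over all genes. No member was called, and 1 gene of 13482 was called higher (0.00742%). For Mcpt8l2 the 95% interval of -0.95 to 1.04 holds departures in either direction. The term of Mcpt8l2 was positive, while its observed mean FPKM was 0.868 times the product.

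Co-variation was measured across animals after removing each group's mean from log2(FPKM + 0.1). All 10 pairs of proteases had a positive Pearson's r, with a median of 0.22 and a range of 0.12 to 0.66 (n = 44). The closest pair was Mcpt2 with Mcpt8l3 (r = 0.66, rho = 0.66, adjusted p = 0.0002 and 0.0003 over 10 pairs, permutation test within groups). Leaving out the 2 animals farthest from the median of Mcpt2 gave r = 0.72.

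Mcpt2 also varied with Mcpt8l2 (r = 0.49, adjusted p = 0.0063, and rho = 0.40, adjusted p = 0.037, permutation test) and, by Pearson's r, with Cpa3 (r = 0.45, adjusted p = 0.019, and rho = 0.34, adjusted p = 0.071). Without the 2 farthest animals these were r = 0.43 and r = 0.41. Cpa3 with Mcpt8l3 passed by rank alone (rho = 0.43, adjusted p = 0.031, and r = 0.39, adjusted p = 0.056, permutation test). Cma1 with Mcpt8l2 passed by rank as well (rho = 0.39, adjusted p = 0.038), with r = 0.15. Mcpt8l2 and Mcpt8l3, whose upstream windows matched at 175 of 182 aligned bases, had r = 0.23 (adjusted p = 0.19, permutation test).

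As a scale for these values, the median r of Mcpt2 with the 13477 tested genes that are no members was 0.17, and that of the other 4 proteases lay between 0.014 and 0.19. None of those genes reached the r of 0.66 between Mcpt2 and Mcpt8l3 when set against Mcpt2. Set against Mcpt8l3, Xcr1 exceeded it with r = 0.68. The 95th percentile of r with Mcpt2 over the other genes was 0.456, above the r of 0.449 between Mcpt2 and Cpa3. Set against Cpa3, 0.70% of the other genes reached 0.449. For Cma1, 20.7% of the other genes had an r at or above its highest value with a protease, 0.22.

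Within single groups the pairs were positive in 10 of 10 cases in Vehicle (median r 0.58, n = 11), Enalapril (0.53, n = 9) and Combination (0.13, n = 12), and in 6 of 10 cases in Compound 1 (0.057, n = 12). None of these 40 values passed adjustment by an exact or permutation test. In Vehicle, the median r fell to 0.41 when the 2 farthest animals of each pair were left out, and in Enalapril to 0.16. The lowest r was then -0.18 in Vehicle and -0.41 in Enalapril. The highest single-group values were those of Mcpt2 with Mcpt8l3 in Vehicle and in Enalapril (both r = 0.82). Whether the groups differ in co-variation was not tested.

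**Figure D3:**
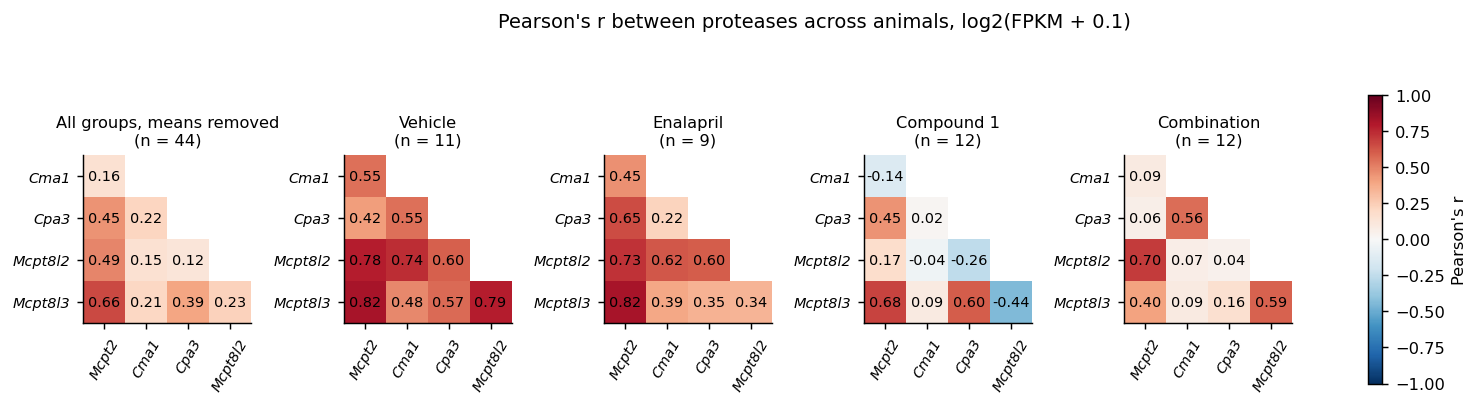
Pearson's r between each pair of proteases across animals on log2(FPKM + 0.1), for all 44 animals with group means removed and for each group alone (colour scale from -1 to 1, value in each cell). Mcpt2 with Mcpt8l3 is the highest pair over all animals (0.66), and the Vehicle, Enalapril and Combination panels hold positive values throughout.

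The 10 tested genes most like the proteases, by r with the mean of their standardised deviations over 44 animals, were RT1-S3 (0.76), Pea15, Xcr1, Ms4a6a, Clec10a, Psmb8, Ifi27, Ube2l6, Isg15 and C2 (0.70). The median over all genes was 0.15 and the 99th percentile 0.60. RT1-S3 is a class I histocompatibility gene, Psmb8 a subunit of the immunoproteasome, Isg15, Ube2l6 and Ifi27 are interferon-inducible, Xcr1 and Clec10a mark dendritic cells and macrophages, and C2 is a complement component. Without the 2 animals whose mean deviated most, 2103 and 1012, r was 0.78 for RT1-S3 and 0.72 for C2.

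Markers of some other cell types moved with the proteases between animals, and those of others did so little or not at all. The mean of the macrophage markers had r = 0.60 with the protease mean, that of fibroblasts 0.58, cytotoxic lymphocytes 0.56, urothelium 0.39 and kidney epithelium -0.22 (n = 44, group means removed). Neutrophil and inner medulla markers had r = 0.18 each. The mitochondrial share of the FPKM total had r = -0.40 and relative depth r = 0.12. The mean mitochondrial share was 27.5 ± 5.38% in Vehicle, 32.8 ± 5.90% in Enalapril, 30.2 ± 3.96% in Compound 1 and 32.1 ± 4.84% in Combination. Their part in the protease levels was not tested.

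Between the groups, 2 of 7 macrophage markers were called lower under Enalapril, 0 under Compound 1 and 3 under Combination. Over all genes, 4.04%, 0.156% and 6.39% were called lower in these comparisons with Vehicle. The summed level of the macrophage markers ranged from 215 to 439 FPKM in Vehicle, 162 to 236 in Enalapril, 182 to 394 in Compound 1 and 158 to 258 in Combination. Of 6 tested cytotoxic lymphocyte markers, 4, 0 and 5 were lower, and the sum over 8 genes was 24.1 ± 4.91, 15.7 ± 2.58, 21.7 ± 3.91 and 15.2 ± 3.87 FPKM (SD) in Vehicle, Enalapril, Compound 1 and Combination, with a lowest value of 10.2 and a highest of 31.4. Of 5 fibroblast markers, 2, 0 and 2 were lower, with sums of 185 to 362, 138 to 258, 181 to 360 and 154 to 257 FPKM. Of 3 tested neutrophil markers, 0, 0 and 1 were lower. Their sum over 7 genes was 5.86 ± 2.25, 3.36 ± 0.699, 8.24 ± 10.5 and 3.74 ± 1.13 FPKM (SD), with a highest value of 41.6 in Compound 1. With 0.156% of all genes called lower under Compound 1 a count of 0 there says little. Median-of-ratios scaling cut the lower calls over all genes from 545 to 159 under Enalapril and from 861 to 295 under Combination. The marker counts are not given on that scale. The part of these cell types in the protease levels was not tested. Of the 5 eosinophil and basophil markers none passed the filter, and their sum was at most 1.83 FPKM in any animal.

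The levels of other mast cell genes were set beside those of the members. Of 16 other granule proteases found in the table, none passed the filter, and their summed level was 2.75 ± 0.776 FPKM in Vehicle (n = 11), 1.59 ± 0.495 in Enalapril (n = 9), 1.77 ± 0.682 in Compound 1 (n = 12) and 1.37 ± 0.600 in Combination (n = 12). Several further Mcpt genes of the same cluster were not analysed here. Of 25 genes under the filter in the lists of granule proteases, receptors and granule contents, 4 were listed at 0 in every group, and the mean of the other 21 was below Vehicle for 17 under Enalapril, 18 under Compound 1 and 19 under Combination. Of all tested genes, 77.9%, 73.2% and 77.6% had a log2 fold change below 0 in these comparisons, so little is read from the counts. Among the 21, Gzmc, a granzyme named after its values were seen, was an exception, with means of 0.127 FPKM in Vehicle and 0.148, 0.180 and 0.168 FPKM in the treated groups. The 5 mast cell markers that are no members and stand under the filter, Ms4a2 and Fcer1a (subunits of the IgE receptor), the tryptases Tpsab1 and Tpsb2, and Hdc (histidine decarboxylase), of which the tryptases also stand in the protease sum just given, added up to 1.62 ± 0.420 FPKM in Vehicle, 0.763 ± 0.482 in Enalapril, 0.745 ± 0.392 in Compound 1 and 0.471 ± 0.253 in Combination. All 12 Combination animals (highest 0.835 FPKM) lay below the lowest Vehicle animal (0.936 FPKM), while Enalapril and Compound 1 overlapped Vehicle. For such sums the share over all genes was not computed, so nothing is read from the overlap. The values were also near the floor. Median fragment numbers of Ms4a2, Tpsb2 and Tpsab1 were 27, 16 and 2 in Vehicle and 4.5, 3.5 and 0 in Combination. Fcer1a and Hdc values were not whole steps. That the sum was formed over these 5 genes was decided after their values were seen. Kit, a mast cell marker that passed the filter, was left out of the sum. It was not called in any comparison with Vehicle, and its levels are given below. Within groups the relation to the proteases was weak for the 5 genes of the sum. Their r to the protease mean was 0.25 for Ms4a2, 0.30 for Fcer1a, 0.28 for Hdc, 0.14 for Tpsb2 and 0.07 for Tpsab1 (n = 44, group means removed). For Kit it was 0.20. Single genes, here low except Kit, are not directly comparable with means of marker lists (0.60 for macrophage and 0.58 for fibroblast markers). Single macrophage markers ranged from 0.27 (Cd163) to 0.62 (C1qb). The mean of the tested mast cell receptors and transcription factors had r = 0.48. That of the granule matrix, amines and lipid mediators had r = 0.24.

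**Figure D4:**
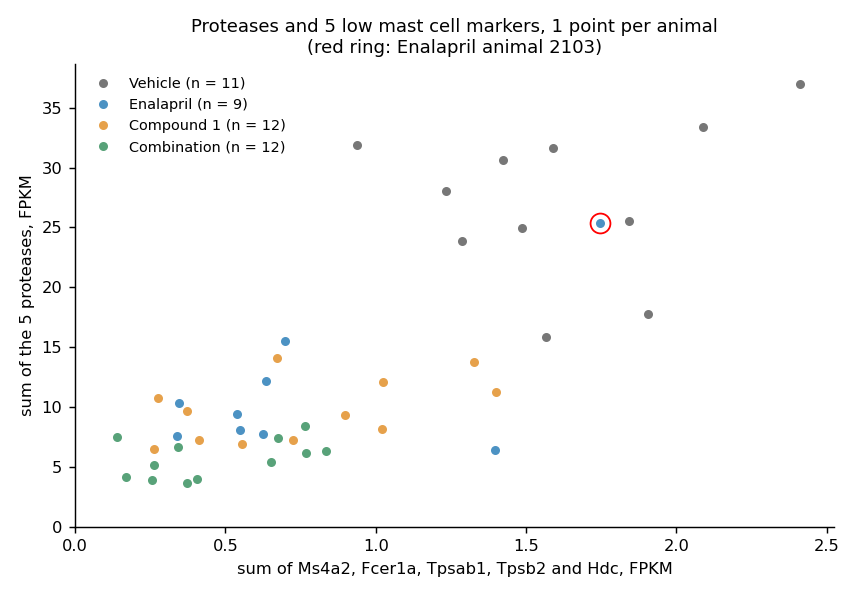
Summed FPKM of the 5 proteases (y axis) against the summed FPKM of Ms4a2, Fcer1a, Tpsab1, Tpsb2 and Hdc (x axis), 1 point per animal coloured by group. Vehicle animals lie at the upper right, Combination animals at the lower left, and the ringed Enalapril animal 2103 (1.75 and 25.3 FPKM) lies among the Vehicle animals. Kit, a mast cell marker that passed the filter, is not in the sum on the x axis.

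Among receptors and transcription factors of mast cells that passed the filter, Kit, the stem cell factor receptor, stood at 7.44 ± 1.08 FPKM in Vehicle, 6.40 ± 0.628 in Enalapril, 7.31 ± 0.732 in Compound 1 and 6.37 ± 1.02 in Combination. Gata2, a transcription factor of mast cells and of other kidney cells, stood at 7.33, 5.93, 6.86 and 6.00 FPKM and did not reach the fold threshold. Of the 5 tested genes of this list, 1 was lower under Enalapril, 0 under Compound 1 and 1 under Combination, and each time it was Il1rl1, the IL-33 receptor. Over all genes the shares called lower were 4.04%, 0.156% and 6.39%. The log2 change of Il1rl1 was -0.66 under Enalapril (SE 0.17, adjusted p = 0.0060, limma), -0.18 under Compound 1 (SE 0.16, adjusted p = 0.62) and -0.85 under Combination (SE 0.16, adjusted p = 0.00022).

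Of 7 tested genes of the granule matrix, amines and lipid mediators, 1 was lower under Enalapril (Ltc4s, leukotriene C4 synthase, log2 fold change -0.64, SE 0.24, adjusted p = 0.046, limma), 0 under Compound 1 and 1 under Combination (Alox5, 5-lipoxygenase, -0.83, SE 0.15, adjusted p = 0.00018). The shares of all genes called lower were 4.04%, 0.156% and 6.39% under Enalapril, Compound 1 and Combination. Srgn, the serglycin core protein, had log2 fold changes of -0.15, -0.01 and -0.22. Among 8 IgE receptor signalling genes, 0, 0 and 2 were lower (Lat and Lat2 under Combination), and of 5 growth and recruitment genes, among them Kitlg and Il33, none was called in any comparison with Vehicle. Of 5 genes of protease activation and inhibition, Slpi, the secretory leukocyte protease inhibitor, was lower under Enalapril (-0.78, SE 0.20, adjusted p = 0.0062, limma) and Combination (-0.82, SE 0.16, adjusted p = 0.00029) and not under Compound 1 (-0.45, SE 0.15, adjusted p = 0.20).

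**Figure D5:**
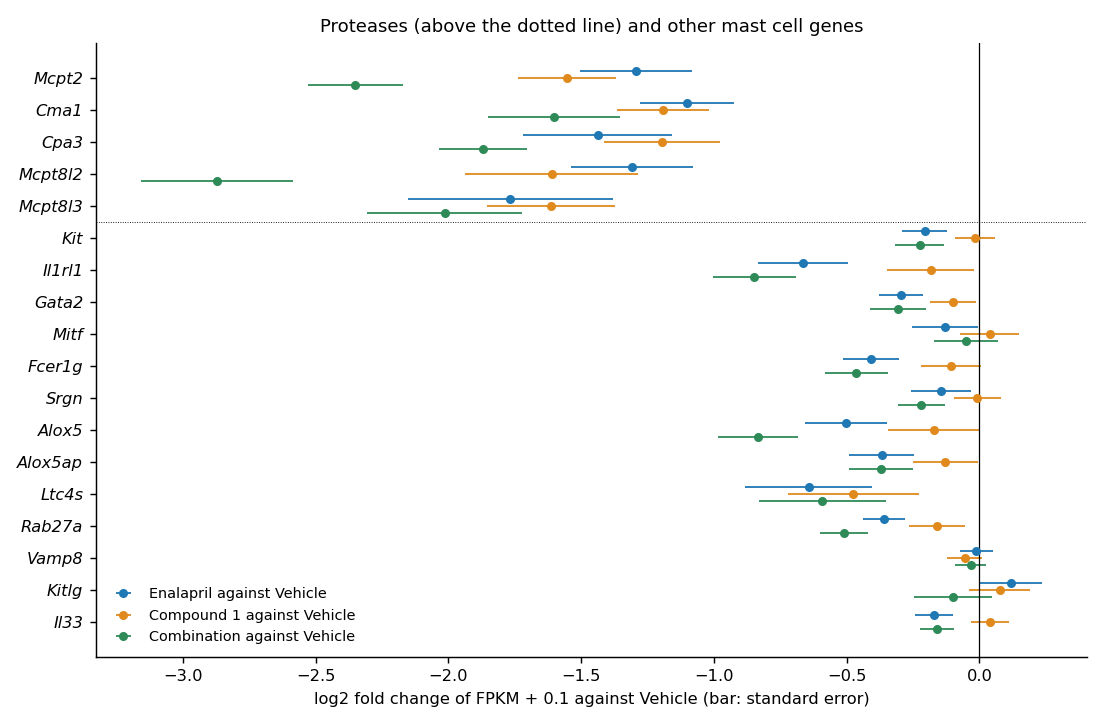
Log2 fold change of FPKM + 0.1 against Vehicle (x axis) with its SE for the 5 proteases, above the dotted line, and for 13 other tested genes of the mast cell lists, under Enalapril, Compound 1 and Combination. The proteases, chosen for these changes, lie between -1.10 and -2.87, and the other genes between -0.85 and 0.12. The 13 include the growth and recruitment genes Kitlg and Il33. The markers under the filter, Ms4a2, Fcer1a, Tpsab1, Tpsb2 and Hdc, are not drawn. Their sum was 1.62 FPKM in Vehicle and 0.471 in Combination.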

How the data were processed

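Kidney RNA of 44 rats was sequenced by the authors from TruSeq Stranded mRNA libraries as paired reads, and the deposited values are FPKM per gene entry (build rn6, from the submitters' processing notes). For the aligner and the counter, names were not given in the sources used here. Groups came from the labels. Animal numbers do not recur between groups, so no pairing exists. FPKM is not a count, so limma 3.58.1 (R 4.3.3, trend) was fitted on log2(FPKM + 0.1) to entries above 1 FPKM in at least 9 animals, with Benjamini-Hochberg adjustment over 13482 entries. A gene was called at adjusted p under 0.05 and a fold above 1.5 or under 0.66. Treated groups were compared with Vehicle in fits of the 2 groups, and other contrasts in the fit of all 4. Correlations were tested with 100000 permutations within groups (all orders in Enalapril). Relative depth came from ratios of low values between libraries. The fit was tested on simulated data. The authors' tool for raw counts was DESeq2, which was not run because no counts were used here. Symbols with several entries were represented by that with the highest mean. The members and gene lists were chosen with earlier results of these data known. Named were the members, tested or called genes of the mast cell lists, and the 10 genes most like the members. Alternatives were pseudocounts, filters, median-of-ratios scaling, sample weights, other animals in the fit and animals left out.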

Additional observations from a re-analysis of the deposited data

Results flagged for a closer look

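In Enalapril, the one group small enough for Dixon's test, 25 genes of the mast cell lists were examined and 3 had an animal apart from the other 8. Chance alone marks about 1 in 20 such groups. Mcpt2 in animal 2103 was 15.4 FPKM, with a gap to the next animal of 0.496 of the group's range, just above the critical value for 9 animals. Mcpt8l3 in the same animal was 3.48 FPKM, with a gap of 0.520 of the range. Gzmb, the granzyme B gene, was 0.447 FPKM in animal 2009, with a gap of 0.558 of the range, although every Enalapril value of this gene was low and its highest in Vehicle was 1.14 FPKM. Both protease values belong to 1 animal, which was the highest of its group for all 5 members.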

How the results depend on the processing

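Calls against Vehicle chose the members, so their number is no sign of stability. With a pseudocount of 0.01, Mcpt8l2 (-1.94) lost its call under Compound 1. With a filter at 5 FPKM, 1 of 1 tested member was called in each comparison with Vehicle and 1 in Combination against Compound 1, because fewer genes were tested. In Combination against Enalapril the number called changed from 1 to 2 with a pseudocount of 1, with median-of-ratios scaling and with sample weights, and to 0 without a filter, with only these groups in the fit and without animals 2103 and 3102 to 3105. Leaving out 1 animal gave 0 to 2. Against Compound 1, a pseudocount of 1 left 1 of 3 called members, and leaving out 1 animal gave 2 to 3. The cause was not tested.

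Some values changed sign, none of them called. For Enalapril minus Compound 1, Cma1 was -0.012 with sample weights, -0.13 without animals 2103 and 3102 to 3105, and -0.078 without the 6 animals listed last. Mcpt8l2 was -0.24 without animals 2103 and 3102 to 3105, and -0.0029 to 0.41 without 1 animal. Mcpt8l3 was 0.0036 with a pseudocount of 1, 0.059 with sample weights, 0.19 without the 6 animals listed last, and -0.40 to 0.073 without 1 animal. The interaction of Mcpt8l2 was -0.090 with a pseudocount of 0.01, -0.028 with median-of-ratios scaling, -0.44 with sample weights, -0.21 without animals 2103 and 3102 to 3105, and -0.26 to 0.24 without 1 animal. Of 1492 values of single genes over all alternatives, 1422 kept their direction and side of the threshold, 41 lost a call, 5 gained one and 24 changed sign.

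Over all genes, calls ranged over the alternatives from 249 to 762 for Enalapril (611 as reported), 12 to 35 for Compound 1 (27), 440 to 1270 for Combination (995), 115 to 502 for Combination against Compound 1 (314), 133 to 397 for Enalapril against Compound 1 (299) and 0 to 18 for Combination against Enalapril (1). The median r between members was 0.199 to 0.339 (0.224), and the median ratio of Combination to product 1.45 to 1.73 (1.47). No paired analysis was possible because animal numbers do not recur between groups. Low fragment numbers limit Cma1 and Cpa3 in Combination, and the depth behind the Mcpt8 genes is unknown.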
